A study of Mus musculus with 6 samples.

Results

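The mitochondrially encoded genes are the genes of the mitochondrial chromosome, chrM, and they were taken as every row whose Ensembl ID lies on chrM in GENCODE M21 (build GRCm38). The rule found 37 of the 55487 genes in the count table. They comprise 13 protein-coding genes, 2 rRNA genes and 22 tRNA genes, with 28 genes on the plus strand and 9 on the minus strand. RNA came from RAW264.7 cells, an established mouse macrophage line that can form osteoclasts. RANKL and M-CSF, which together turn macrophages into osteoclasts, are the treatment given for each of the 6 samples, although the design text calls the control cell line untreated. Of these, 3 were control samples with the genotype wt, and 3 carried the genotype label RhoA knockout and the title SMART-Cas9. RhoA is a GTPase of the cytoskeleton, and the question posed was how macrophages lacking it affect bone loss in rheumatoid arthritis. There was no group with Cas9 alone, so Cas9 delivery and the edit cannot be told apart. Whether the edited cells were a clone or a pool is not given in the sources used here. The labels do not state separate cultures for the 3 samples of a group, so the p-values rest on a spread that may be technical.

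The mitochondrial genome is a small circle that encodes core subunits of the respiratory chain and of the ATP synthase, together with the rRNAs and tRNAs that translate them inside the organelle. Both strands are copied into long precursor RNAs, which are cut mainly at the tRNAs to release the mRNAs and rRNAs. Nuclear genes supply all other subunits and all proteins that copy, transcribe and process mitochondrial DNA and RNA. Osteoclasts are known as cells rich in mitochondria, and resorption of bone is a costly process that relies on respiration.

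Library totals ran from 60198645 to 81830819 counts. Rhoa itself, at 21.4, 25.8 and 24.4 CPM in the controls, was at 34.2, 29.9 and 31.5 CPM where a knockout was labelled (0.41 ± 0.12 on the log2 scale, SE, edgeR adjusted p = 0.0136). CPM are counts per 1000000 after TMM scaling, a correction for libraries in which a few genes take many counts. Directions below are therefore those of the libraries labelled RhoA knockout against control. Of 10 macrophage markers 9 exceeded 1 CPM, all but Mertk, which was at 0 in 5 of the 6 libraries. Their summed level was 18176 to 20029 CPM in the controls and 81170 to 113780 CPM in the others, most of it Lyz2, and its part in the results below was not tested. The other macrophage markers did not share one direction: Cd14 fell from 796 ± 3.18 to 532 ± 26.3 CPM and Itgam from 28.3 ± 2.00 to 7.01 ± 1.20 CPM (SD, n = 3 each), while Cd68, Csf1r and Fcgr3 were higher in each library labelled RhoA knockout than in any control. The osteoclast markers Calcr and Oscar were at 0 in all 6 libraries, and the 10 osteoclast markers together held 24.3 to 27.7 CPM in the controls and 27.3 to 27.5 CPM in the others. That even sum held opposite changes: Mmp9, Acp5 and Dcstamp fell by 2.06, 1.43 and 0.77 on the log2 scale, and Ctsk and Atp6v0d2 rose by 1.10 and 0.62 (largest edgeR adjusted p 0.0203). Markers of fibroblasts, epithelium, B cells, erythroid cells and neutrophils each summed to at most 1.44 CPM in any library, and those of T cells to at most 3.31 CPM, nearly all of it Lck. Fewer cells of a type and less RNA per cell cannot be told apart in such bulk samples, nor can fewer mitochondria and less RNA per mitochondrion.

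Several mitochondrial genes have near-identical copies in the nuclear genome, and these copies decide how far single genes can be read. Of the 37 genes, 9 matched an annotated nuclear transcript at 95% identity or more over at least 200 bases (or 80% of a shorter gene). The 11 matching copies are all pseudogenes, and 7 of them held at least 10% of the count of their mitochondrial gene in a library. All 7 lie side by side on the minus strand of chromosome 1, between positions 24611535 and 24616197. Their order is that of the mitochondrial genome from the end of mt-Co1 through mt-Co2, mt-Atp6, mt-Co3, mt-Nd3 and mt-Nd4l to mt-Nd4. On chrM, mt-Ts1, mt-Td, mt-Tk, mt-Atp8, mt-Tg and mt-Tr lie between these genes. Only annotated transcripts were searched, so copies of these 6 on chromosome 1 without an annotation would have been missed. On chrM the stretch with mt-Ts1 and mt-Td runs from 6872, the end of mt-Co1, to 7013, the start of mt-Co2. The copies of mt-Co1 and mt-Co2 lie equally far apart, at 24615706 and 24615565. Values of these 6, mt-Ts1 and mt-Atp8 included, may thus be as uncertain as those of genes with an annotated copy. The copies of mt-Atp6, mt-Co2, mt-Co3, mt-Nd4l and mt-Nd4 had 0 mismatches over the aligned part. The start of mt-Atp6, with its start codon in capitals, is shown as an example of a stretch that a read cannot assign.
mt-Atp6, chrM:7927-7986, plus strand: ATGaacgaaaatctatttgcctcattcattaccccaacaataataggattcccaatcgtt
Gm10925, chr1:24614592-24614651, minus strand: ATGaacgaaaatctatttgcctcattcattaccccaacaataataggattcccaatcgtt
The copy of mt-Nd3 differed from it by the single substitution T3C and the copy of the end of mt-Co1 by A1066T, with positions counted from 1 at the first base of the mitochondrial gene and the mitochondrial base given first. These are the stretches that hold the differing base, in capitals.
mt-Nd3, chrM:9459-9519, plus strand: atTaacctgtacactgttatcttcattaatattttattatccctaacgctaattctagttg
Gm28438, chr1:24613059-24613119, minus strand: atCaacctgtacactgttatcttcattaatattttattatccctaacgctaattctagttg
mt-Co1, chrM:6390-6450, plus strand: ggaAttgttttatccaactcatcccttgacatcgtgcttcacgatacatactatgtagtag
Gm29216, chr1:24616128-24616188, minus strand: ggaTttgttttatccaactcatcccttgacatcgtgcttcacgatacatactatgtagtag
For mt-Nd1 and mt-Cytb, by contrast, no annotated copy met these limits. Their first bases, with the start codon in capitals, are given because both genes carry large changes below.
mt-Nd1, chrM:2751-2810, plus strand: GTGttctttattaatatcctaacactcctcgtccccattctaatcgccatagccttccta
mt-Cytb, chrM:14145-14204, plus strand: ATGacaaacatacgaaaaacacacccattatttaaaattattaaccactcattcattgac

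Mitochondrially encoded genes took a larger share of the counts in the libraries labelled RhoA knockout. Their share was 8.68, 8.69 and 7.01% of all counts in the control libraries and 12.3, 11.9 and 9.95% in the others. No control library reached the lowest of the other 3, and the means were 8.13 ± 0.970% against 11.4 ± 1.24% (SD, n = 3 each). An exact two-sided permutation test over the 6 samples gave p = 0.1, the smallest value that 3 against 3 can give. The 95% Wilson interval of a single library was at most 0.00759 percentage points wide on either side, and covers counting error only. With the counts of the nuclear copies added, the share was 10.3 to 12.8% in the controls and 14.3 to 17.1% in the others.

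The genes did not move as a block. Of the 34 members that passed the low-count filter, 17 were higher, 5 lower and 12 not called at an adjusted p of 0.05, and 3 tRNA genes were too sparse to test. Over all 12930 genes tested 21.0% were called higher, 22.3% lower and 43.2% in either direction. The median log2 fold change was 0.77 for the tested members and -0.03 for all genes tested. TMM-scaled levels of the groups did not overlap for 25 of the 34, against 55.8% of all genes tested. With library totals alone in place of TMM, the median of all genes moved to 0.15, the share of higher calls among all calls from 48.5 to 59.8%, and the members' calls to 18 higher and 3 lower. By class, 6 of 7 complex I subunits were higher and 1 lower. The complex III subunit was higher, both complex V subunits were higher, and the complex IV subunits split into 1 higher, 1 lower and 1 not called. Both rRNAs were lower. Among the 13 protein-coding genes the log2 fold changes spanned -1.32 to 4.60.

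**Figure D1:**
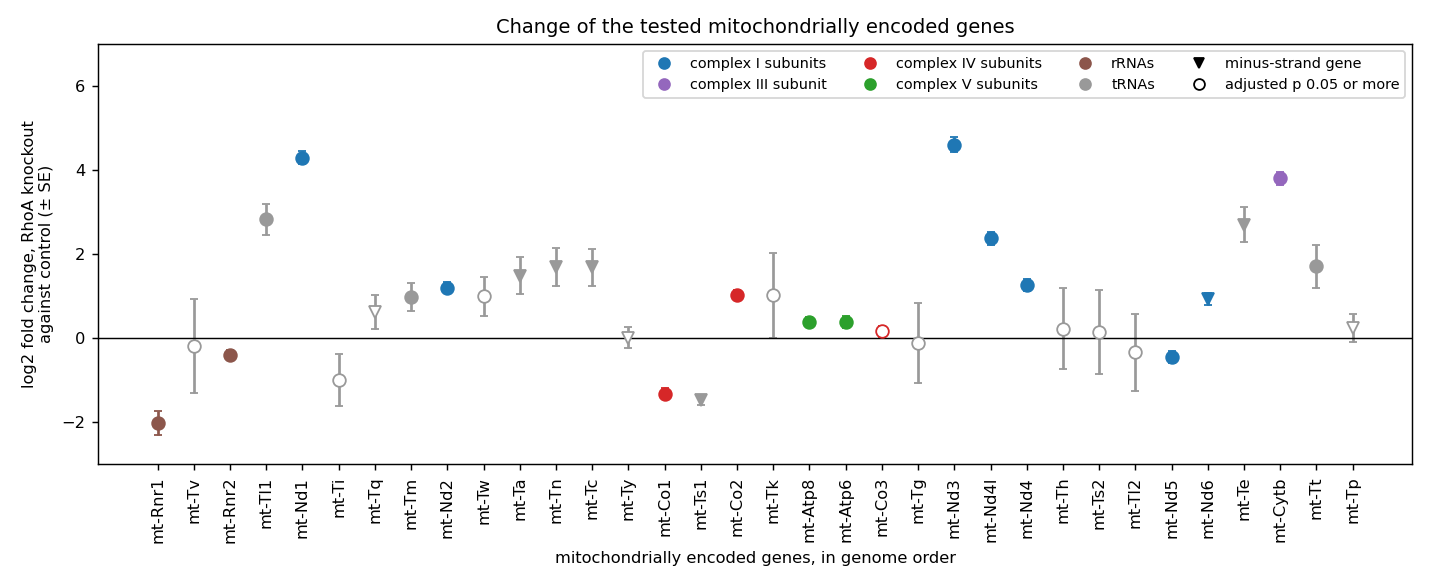
Log2 fold change (vertical axis, ± SE) of the 34 tested mitochondrially encoded genes, placed in genome order and coloured by class, with triangles for minus-strand genes and open symbols for an adjusted p of 0.05 or more. mt-Nd1, mt-Nd3 and mt-Cytb stand at 4.29, 4.60 and 3.81, while mt-Co1 and mt-Rnr1 lie at -1.32 and -2.02.

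Complex I is the NADH dehydrogenase through which most electrons enter the respiratory chain, and its subunits held the largest rises. mt-Nd1 (chrM:2751-3707, plus strand), a membrane subunit near the quinone site, was at 722.0, 669.5 and 559.2 CPM in the controls and at 13406, 12220 and 12663 CPM in the libraries labelled RhoA knockout. The lowest of the latter lay far above the highest control, and the log2 fold change was 4.29 ± 0.15 (SE, adjusted p = 3.01e-09), a 19.6-fold rise. mt-Nd3 (chrM:9459-9806), another membrane subunit, held 243, 121 and 136 counts in the controls and 5745, 5379 and 4088 in the others, with a log2 fold change of 4.60 ± 0.18 (adjusted p = 7.73e-09). Its level was the lowest per length of the 15 protein-coding and rRNA genes in the controls, at 7.21 ± 1.63 CPM per kb (SD, n = 3), and it is uncertain because of its copy Gm28438. The copy held more counts than mt-Nd3 in all 6 libraries, with 350, 295 and 274 in the controls and 8820, 8274 and 6205 in the others, and rose by 4.31 ± 0.14 on the log2 scale.

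Other complex I subunits rose less. mt-Nd4l (chrM:9877-10173) rose from 53.3, 49.8 and 35.7 CPM to 259.9, 219.1 and 242.1 CPM, by 2.38 ± 0.15 on the log2 scale (adjusted p = 2.47e-07). Its neighbour mt-Nd4 (chrM:10167-11544), which overlaps it by 7 bases, rose by 1.26 ± 0.14 (adjusted p = 1.65e-05), and mt-Nd2 (chrM:3914-4951) by 1.20 ± 0.12 (adjusted p = 9.49e-06). Neither gene overlapped between the groups, with mt-Nd2 at 166 to 211 CPM in the controls and 394 to 452 CPM in the others. The copy Gm28439, which matches the first 876 of the 1378 bases of mt-Nd4, rose by 1.89 ± 0.15. It held 14.9 to 16.6% of the mt-Nd4 count in the controls and 24.2 to 25.0% in the libraries labelled RhoA knockout. That share was higher in all 3 of the latter than in any control.

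mt-Nd5 and mt-Nd6, the remaining complex I subunits, went opposite ways although they abut. mt-Nd5 (chrM:11742-13565, plus strand) had 606, 648 and 490 CPM in the controls and 483, 411 and 380 CPM in the others. The groups came close, with 489.9 CPM in control replicate 3 and 482.7 CPM in knockout replicate 1. The fall of mt-Nd5 was -0.45 ± 0.14 on the log2 scale (adjusted p = 0.0183). The call was lost without control replicate 1 (adjusted p = 0.0778), control replicate 2 (0.0710), knockout replicate 2 (0.0589) or knockout replicate 3 (0.0597). With library totals alone it was also lost, at -0.27 and an adjusted p of 0.221. mt-Nd6 (chrM:13552-14070), the only protein-coding gene on the minus strand, rose from 44.4, 53.9 and 38.0 CPM to 95.4, 74.9 and 88.7 CPM, by 0.93 ± 0.14 on the log2 scale (adjusted p = 0.000215). The genes share 14 bases, given in capitals at the end of mt-Nd5.
mt-Nd5, chrM:13532-13565, plus strand: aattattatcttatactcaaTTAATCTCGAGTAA
The mt-Nd6 to mt-Nd5 count ratio was 0.0733, 0.0832 and 0.0776 in the controls and 0.198, 0.182 and 0.234 in the others. The strand setting of the counting is not given, so reads of mt-Nd6 and reads of plus-strand RNA running past mt-Nd5 cannot be told apart.

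Complex III passes electrons on to cytochrome c, and mt-Cytb (chrM:14145-15288), its cytochrome b, is its only mitochondrially encoded subunit. mt-Cytb was at 2230, 2008 and 1681 CPM in the controls and at 28706, 28209 and 25872 CPM in the libraries labelled RhoA knockout. All 3 of the latter exceeded every control by more than the spread of either group, at 1973 ± 276 against 27596 ± 1513 CPM (SD, n = 3 each). The log2 fold change was 3.81 ± 0.16 (SE, adjusted p = 9.56e-09), a 14.0-fold rise. Per length, mt-Cytb went from the fifth to the second most abundant of the 15 protein-coding and rRNA genes.

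Complex IV, the cytochrome c oxidase, showed a split between subunits. mt-Co1 (chrM:5328-6872), its catalytic core, fell from 44765, 44293 and 40035 CPM to 17736, 17745 and 16150 CPM. Each library labelled RhoA knockout lay below each control, with a log2 fold change of -1.32 ± 0.13 (SE, adjusted p = 6.86e-06). mt-Co2 (chrM:7013-7696), which takes up electrons from cytochrome c, rose from 771, 706 and 626 CPM to 1517, 1310 and 1442 CPM (1.02 ± 0.12, adjusted p = 3.87e-05). mt-Co3 (chrM:8607-9390) stood at 14602, 13891 and 12785 CPM and at 14888, 15003 and 16167 CPM. The groups did not overlap, but the difference of 0.16 ± 0.12 was not called (adjusted p = 0.340). It became 0.33 (adjusted p = 0.0177) with library totals alone and -0.15 (adjusted p = 0.350) with an offset for gene length. The mt-Co1 to mt-Co2 count ratio accordingly went from 58.0, 62.7 and 64.0 to 11.7, 13.5 and 11.2.

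The copies of these genes moved like the genes whose reads they may share. Gm29216, which matches the last 483 bases of mt-Co1, fell by 1.53 on the log2 scale (SE 0.12, adjusted p = 1.21e-06) and held 17.4 to 18.9% of the mt-Co1 count in the controls and 15.0 to 16.9% in the others. Gm13340 on chromosome 2 matches all of mt-Co1 with 37 mismatches, held at most 0.07% of its count, and stood at -1.27 ± 0.16 on the log2 scale (adjusted p = 4.30e-05). Gm28661 had a value of 1.02 ± 0.12, against 1.02 for mt-Co2, and Gm28437 one of 0.17 ± 0.13 (adjusted p = 0.294), against 0.16 for mt-Co3. The count of mt-Atp6 divided by that of Gm10925 was 0.988 to 1.011 over the 6 libraries, that of mt-Co3 by Gm28437 0.988 to 1.006, and that of mt-Co2 by Gm28661 1.012 to 1.016. Whether a shared read was counted for both rows or divided between them is not given in the sources used here. Counts of the copies were added to the mitochondrial genes as an alternative, and the members' calls remained 17 higher and 5 lower in number. Where gene and copy held nearly equal counts in every library, the addition could hardly move the fold change. It therefore cannot show how shared reads bear on the calls.

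**Figure D2:**
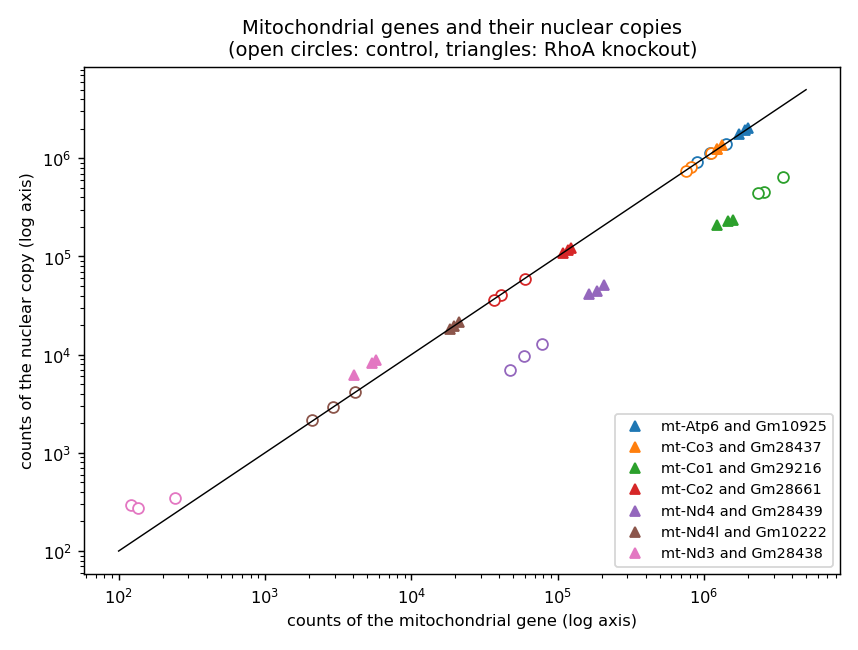
Counts of 7 mitochondrial genes (horizontal log axis) against those of their nuclear copies (vertical log axis), with open circles for the 3 control and triangles for the 3 RhoA knockout libraries. The line marks equal counts: mt-Atp6, mt-Co3, mt-Co2 and mt-Nd4l lie on it, mt-Nd3 lies above it, and mt-Co1 and mt-Nd4, whose copies match only part of the gene, lie below it.

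Complex V, the ATP synthase, has 2 mitochondrially encoded subunits of its membrane part, and both showed small rises. mt-Atp6 (chrM:7927-8607) was at 18473, 18936 and 15229 CPM in the controls and 21293, 22273 and 25272 CPM in the others (0.39 ± 0.14 on the log2 scale, adjusted p = 0.0418). mt-Atp8 (chrM:7766-7969) was at 2875, 3005 and 2405 CPM against 3400, 3614 and 3782 CPM (0.38 ± 0.13, adjusted p = 0.0299). The groups did not overlap for either gene. The genes overlap by 43 bases and the mt-Atp8 count was 15.0 to 16.2% of the mt-Atp6 count in all 6 libraries. Both calls were lost when control replicate 1, 2 or 3 or knockout replicate 1 or 2 was left out, with adjusted p-values from 0.0501 to 0.0939. With the length offset the values were 0.09 for mt-Atp6 (adjusted p = 0.643) and 0.31 for mt-Atp8 (adjusted p = 0.0718).

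**Figure D3:**
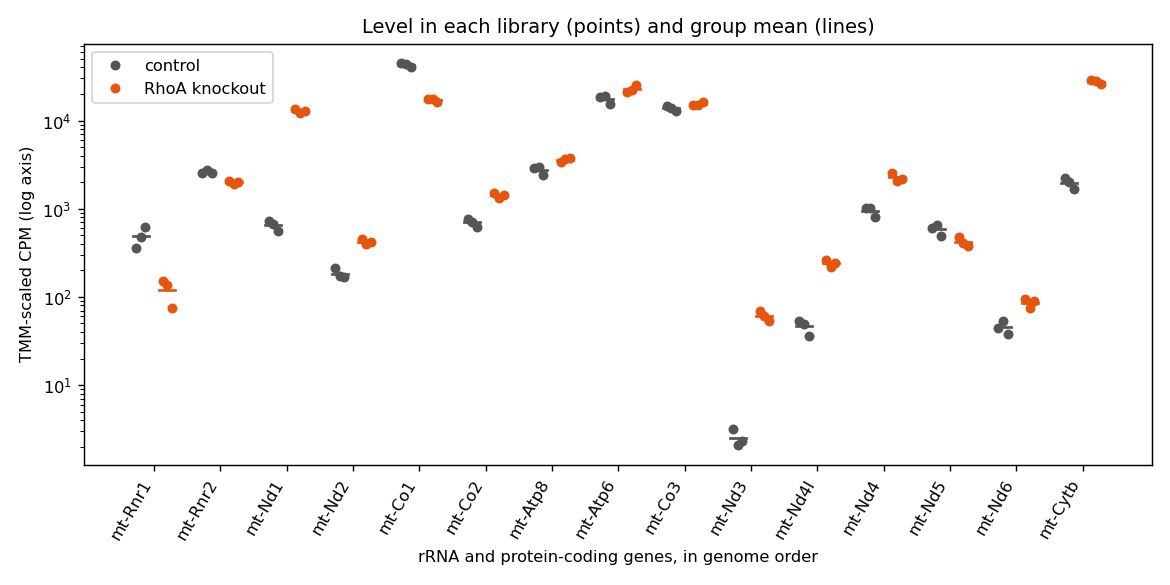
TMM-scaled CPM (vertical log axis) of the 2 rRNA and 13 protein-coding genes in each of the 3 control and 3 RhoA knockout libraries, in genome order, with lines at the group means. mt-Nd1, mt-Nd3 and mt-Cytb separate the groups by more than 10-fold, whereas mt-Co3, mt-Atp6 and mt-Atp8 lie close together.

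The rRNAs of the mitochondrial ribosome were lower in the libraries labelled RhoA knockout. mt-Rnr1 (chrM:70-1024), the rRNA of the small subunit, fell from 363, 482 and 616 CPM to 150, 136 and 75.7 CPM, with a log2 fold change of -2.02 ± 0.29 (SE, adjusted p = 0.000849). The groups did not overlap, and replicate 3 was the highest control and the lowest of the others. mt-Rnr2 (chrM:1094-2675), that of the large subunit, fell from 2565, 2775 and 2547 CPM to 2041, 1929 and 2022 CPM (-0.40 ± 0.11, adjusted p = 0.0138). With library totals alone, mt-Rnr2 was at -0.22 with an adjusted p of 0.105. Counts of rRNA per count of mRNA went from 0.0339, 0.0381 and 0.0423 to 0.0209, 0.0199 and 0.0200. On that scale the controls and the others did not overlap. Whether the libraries were selected for poly(A) RNA or depleted of rRNA is not given in the sources used here.

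Among the 22 tRNA genes, 59 to 75 bases long, mt-Ts1 alone held many counts. It was at 47921, 37855 and 32946 counts in the controls and at 17105, 20089 and 16713 in the others, while no other tRNA gene exceeded 296 counts in a library. mt-Ts1 (chrM:6870-6938, minus strand) codes for a serine tRNA and overlaps the end of mt-Co1 by 3 bases on the opposite strand. Its whole sequence on its own strand is shown, since its counts follow those of mt-Co1.
mt-Ts1: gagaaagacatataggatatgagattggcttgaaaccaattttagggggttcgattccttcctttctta
The fall was -1.48 ± 0.11 on the log2 scale (adjusted p = 8.46e-07), close to -1.32 for mt-Co1. The mt-Ts1 count was 1.39, 1.46 and 1.40% of the mt-Co1 count in the controls and 1.18, 1.27 and 1.36% in the others. With the strand setting not given, tRNA reads and reads of plus-strand RNA beyond mt-Co1 cannot be told apart.

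Of the other tRNA genes, 7 rose and 11 were tested but not called, all at low counts, where 21.0% of all genes tested were higher. mt-Tl1, which lies directly before mt-Nd1, rose from 31, 16 and 26 counts to 226, 199 and 229 (2.83 ± 0.37 on the log2 scale, adjusted p = 6.65e-05). mt-Te, which lies before mt-Cytb on the minus strand, rose from 33, 14 and 15 counts to 173, 172 and 153 (2.70 ± 0.42, adjusted p = 0.000258). mt-Tt, directly after mt-Cytb, went from 18, 19 and 33 counts to 105, 116 and 81 (1.71 ± 0.51, adjusted p = 0.0167). These 3 neighbours of mt-Nd1 and mt-Cytb rose. By contrast mt-Ti, which overlaps the end of mt-Nd1 by 2 bases, had -0.99 ± 0.62 (adjusted p = 0.224). The clustered genes mt-Ta, mt-Tn and mt-Tc, all on the minus strand between mt-Nd2 and mt-Co1, rose by 1.49, 1.70 and 1.68 on the log2 scale. In this cluster control replicate 3 stood apart from the other controls, with 99, 94 and 86 counts against 27 to 42. Without it the rises were 2.18, 2.46 and 2.42. mt-Ty, next in the cluster, had 0.01 ± 0.25. mt-Tm rose by 0.97 ± 0.33 (adjusted p = 0.0344).

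Several of these tRNA calls lay close to the threshold and were lost with fewer libraries, at rises of similar size. For mt-Tm the call was lost without any one of control replicates 1 and 3 and knockout replicates 1, 2 and 3, with log2 values of 0.84 to 1.03 and adjusted p-values from 0.0584 to 0.0928. For mt-Tt it was lost without control replicate 1 or knockout replicate 1 or 2 (log2 values of 1.46 to 1.65, adjusted p-values from 0.0502 to 0.0584), and for mt-Ta without control replicate 1 or 2 or knockout replicate 1 (log2 values of 1.15 to 1.44, adjusted p-values from 0.0524 to 0.0623). mt-Tw, not called at 1.00 ± 0.46 (adjusted p = 0.104), was called without control replicate 3, at 1.60 and an adjusted p of 0.0138. mt-Tf and mt-Td, the tRNAs for phenylalanine and aspartate, held at most 10 counts in a library and were not tested. mt-Tr held 0 counts in all 6 libraries, which allows up to 0.0336 to 0.0513 CPM for a count of 3 per library. How multiply matching reads were handled is not given, so that bound covers counted reads only.

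By strand, 12 of the 25 tested plus-strand genes were higher and 4 lower, and 5 of the 9 minus-strand genes were higher and 1 lower. Over all genes tested 21.0% were higher and 22.3% lower. The summed minus-strand counts per plus-strand count fell in step with mt-Ts1, from 0.00753, 0.00799 and 0.00780 to 0.00300, 0.00299 and 0.00304. Without mt-Ts1 the direction was the opposite. The minus-strand genes then took 0.0627 ± 0.00577% of the mitochondrial counts in the controls and 0.0962 ± 0.00929% in the others (SD, n = 3 each). Most of that share was mt-Nd6, at 0.0527 ± 0.00662% and 0.0808 ± 0.00927%. With the strand setting not given, neither sum can be read as RNA of the minus strand. The strand sum therefore followed a single tRNA gene. Ratios within the mitochondrial genome were tested as a family of 6: rRNA to mRNA, minus to plus strand, mt-Nd6 to mt-Nd5, mt-Rnr2 to mt-Rnr1, mt-Co1 to mt-Nd5 and tRNA to mRNA. In each of them the groups did not overlap, and the exact two-sided permutation test gave p = 0.1 before and after Benjamini-Hochberg adjustment, the smallest value that 3 against 3 allows. The tRNA sum, too, was mostly mt-Ts1. All tRNA genes together held 0.724 ± 0.0184% of the mitochondrial counts in the controls and 0.228 ± 0.00838% in the others (SD, n = 3 each). mt-Ts1 alone held 0.709 ± 0.0167% and 0.204 ± 0.00899%. The mt-Rnr2 to mt-Rnr1 count ratio was 7.07, 5.75 and 4.13 in the controls and 13.6, 14.2 and 26.7 in the others.

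The makeup of the mitochondrial counts therefore differed between the groups. mt-Co1 held 49.8, 49.6 and 50.9% of them in the controls and 16.5, 16.8 and 15.1% in the libraries labelled RhoA knockout. mt-Cytb held 2.48, 2.25 and 2.14% against 26.8, 26.6 and 24.2%, and mt-Nd1 held 0.803, 0.749 and 0.712% against 12.5, 11.5 and 11.8%. Complex I subunits together went from 2.84 ± 0.159% to 15.2 ± 0.802% and complex IV subunits from 66.9 ± 1.05% to 31.8 ± 0.309% (SD, n = 3 each). Complex V subunits, at 23.6 ± 1.07% against 24.9 ± 2.09%, differed by less than the spread of the libraries labelled RhoA knockout. For each count on mt-Co1 there were 0.0498, 0.0453 and 0.0420 counts on mt-Cytb in the controls and 1.62, 1.59 and 1.60 in the others.

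**Figure D4:**
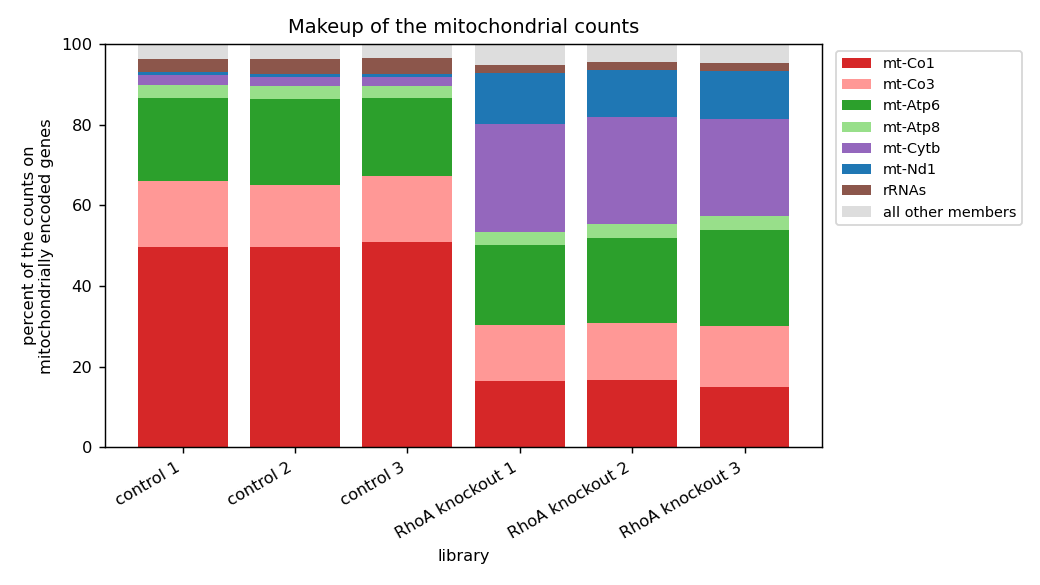
Share of the counts on mitochondrially encoded genes (vertical axis, percent) taken by single genes and by the rRNAs in each of the 6 libraries. mt-Co1 takes about the same large part in each control, at 49.6 to 50.9%, and 15.1 to 16.8% in the RhoA knockout libraries, in which mt-Cytb and mt-Nd1 take 24.2 to 26.8% and 11.5 to 12.5%.

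To test which members moved more or less than the mitochondrial genome as a whole, the edgeR fit was repeated with the summed chrM count as library size. Of the 34 members 12 were then higher, 5 lower and 17 not called, where 13.1% of all genes tested were higher, 30.7% lower and 43.8% called in either direction. Shares of a sum depend on each other, so a rise of mt-Cytb lowers the others. mt-Nd3, mt-Nd1, mt-Cytb and mt-Nd4l stood above the whole by 4.29 ± 0.19, 3.99 ± 0.15, 3.50 ± 0.16 and 2.07 ± 0.14 on the log2 scale. mt-Rnr1, mt-Ts1, mt-Co1, mt-Nd5 and mt-Rnr2 stood below it, at -2.35 ± 0.30, -1.80 ± 0.12, -1.64 ± 0.15, -0.76 ± 0.14 and -0.71 ± 0.13. The largest adjusted p of these 5 was 0.00112. mt-Atp8, mt-Atp6 and mt-Co3 were not called, at 0.07 ± 0.13, 0.08 ± 0.15 and -0.16 ± 0.14.

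Levels can be compared between genes only per length. In the controls mt-Co1 was the most abundant of the 15 protein-coding and rRNA genes, at 27852 ± 1686 CPM per kb, followed by mt-Atp6 at 25765 ± 2966, mt-Co3 at 17550 ± 1168 and mt-Atp8 at 13537 ± 1547 (SD, n = 3 each). The lead of mt-Co1 over mt-Atp6 was smaller than the SD of mt-Atp6. In the libraries labelled RhoA knockout the order was mt-Atp6 at 33695 ± 3045, mt-Cytb at 24122 ± 1323, mt-Co3 at 19582 ± 903, mt-Atp8 at 17641 ± 937, mt-Nd1 at 13337 ± 626 and mt-Co1 at 11139 ± 594 CPM per kb. mt-Rnr1 ranked 10 of 15 in the controls and 15 of 15 in the others. Genes with nuclear copies may be over- or understated on this scale, since reads shared with a copy may have been counted for both rows or divided.

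The nuclear-encoded subunits of the same complexes spanned a narrower range. Of 78 tested genes listed for complexes I to V 67 were higher, none lower and 11 not called, where 21.0% of all genes tested were higher and 22.3% lower. They had a median log2 fold change of 0.81 and a range of -0.27 to 2.00. All are called nuclear subunits here, although Atpif1 encodes an inhibitor of the ATP synthase and not a subunit. Atpif1, at 1.52 on the log2 scale, is counted as higher here and in the complex V list. The 13 mitochondrially encoded subunits had a median of 1.02 and a range of -1.32 to 4.60. All 11 nuclear complex IV subunits were higher (median 0.92), such as Cox7a2, which rose from 18.8 ± 1.40 to 54.9 ± 1.12 CPM, whereas mt-Co1 of the same complex fell. In complex III, 8 of 9 nuclear subunits were higher (median 1.02). Among them Uqcrc1 and Uqcrfs1 rose by 1.58 ± 0.12 and 1.56 ± 0.11 on the log2 scale, beside 3.81 ± 0.16 for mt-Cytb. In complex I, 29 of 36 nuclear subunits were higher (median 0.68), with Ndufv2 at 1.67 ± 0.11 beside 4.29 ± 0.15 for mt-Nd1. For complex V, 15 of 18 tested nuclear subunits were higher (median 0.92, range -0.07 to 2.00), beside 0.39 ± 0.14 for mt-Atp6. Atp5o and Atp5c1 rose the most, by 2.00 ± 0.13 and 1.76 ± 0.11. All 4 subunits of complex II, which has no mitochondrially encoded subunit, were higher (median 0.845). Differences between nuclear and mitochondrial subunits were not tested. Of 14 genes of the outer membrane and of general mitochondrial mass, 10 were higher, none lower and 4 not called (median 0.61, range -0.50 to 1.58). Tomm20 and Vdac2 were among the higher ones. Tomm40, Cs and Chchd3 had values below 0 that were not called, at -0.50, -0.24 and -0.16.

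Nuclear genes that copy, transcribe and process the mitochondrial genome included higher and lower members. Their counts are to be read against the 21.0% higher and 22.3% lower of all genes tested, and show nothing particular to these lists. Of 16 genes of mtDNA replication and nucleoids 1 was higher and 2 lower (median -0.36). Of 9 tested transcription genes, which include the polymerase Polrmt and the factor Tfam, 1 was higher and none lower (median 0.47). That gene was Tefm, the elongation factor, which rose from 3.17 ± 0.539 to 7.93 ± 0.328 CPM (SD, n = 3 each; 1.32 ± 0.20 on the log2 scale, SE, adjusted p = 0.000198). Of 25 RNA processing and modification genes 6 were higher and 4 lower (median 0.22). Elac2, which cuts the tRNA 3′ ends, had -1.25 ± 0.24 (adjusted p = 0.00126), and Hsd17b10, a subunit of the RNase that cuts the 5′ ends, 1.09 ± 0.11 (adjusted p = 8.25e-06). Of 18 genes of mRNA stability and decay 3 were higher and 3 lower (median -0.12). Here Grsf1, a protein of the mitochondrial RNA granules, had -1.27 ± 0.31 (adjusted p = 0.00608) and Fastkd2, which acts on the large ribosomal subunit, 1.17 ± 0.18 (adjusted p = 0.000213). Of 15 translation factors 5 were higher and 2 lower (median 0.29), with the elongation factor Tufm at 0.73 ± 0.13 (adjusted p = 0.000594). The median of all genes tested was -0.03.

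**Figure D5:**
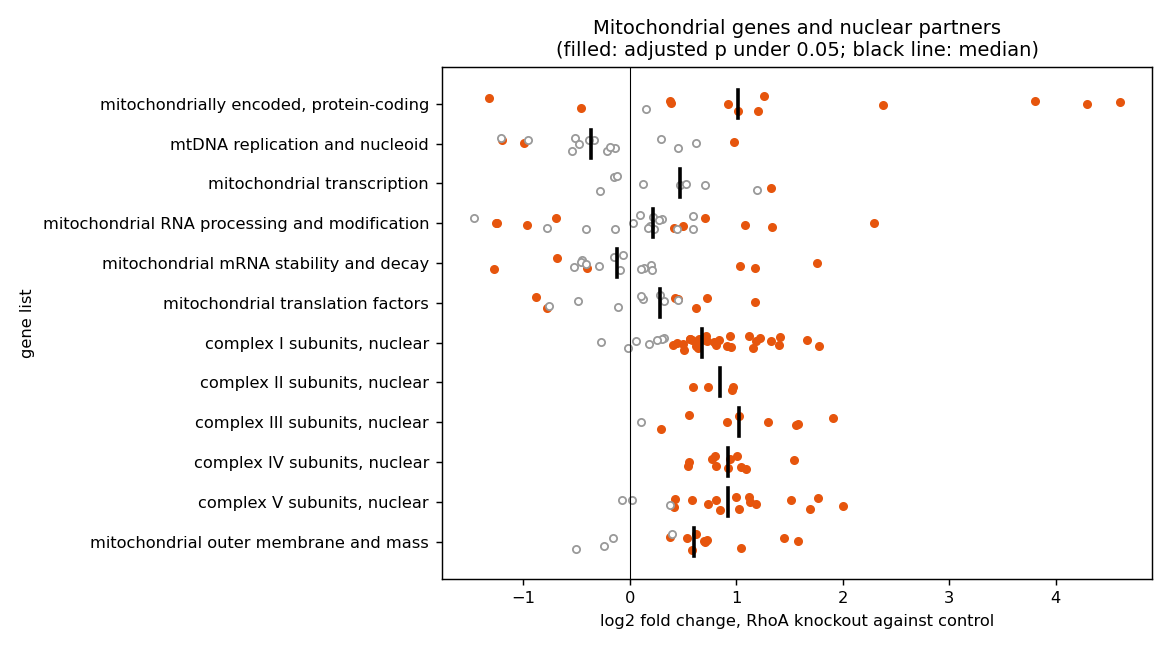
Log2 fold change (horizontal axis) of the 13 mitochondrially encoded subunits and of the members of 11 nuclear gene lists, with filled points for an adjusted p under 0.05 and black lines at the medians. Nuclear subunits of complexes I to V lie between -0.27 and 2.00, and the mitochondrially encoded ones between -1.32 and 4.60.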

How the data were processed

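The authors deposited 1 table of whole-number counts per gene for 6 libraries, without normalization. The submitters' processing notes name the build GRCm38. Neither the software for alignment and counting nor its handling of strand and of multiply matching reads is given in the sources used here. Of the 55487 IDs, 55227 found a symbol in GENCODE M21. The main comparison used a robust quasi-likelihood fit in edgeR 4.0.16 (R 4.3.3), TMM scaling, filterByExpr at a minimum count of 10 and Benjamini-Hochberg adjustment over 12930 genes, called at 0.05. A standard error is the size of the log2 value over the root of its F statistic. CPM are TMM-scaled. The procedure was tested on simulated data. Nuclear copies were sought by blastn 2.17.0 against all GENCODE M21 transcripts, from which the printed sequences come. Shares and ratios were compared by exact permutation tests in scipy 1.17.1.

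The members and gene lists were chosen with earlier results of these data known. All protein-coding and rRNA members, tested tRNA genes, copies with 10% or more of a member's count, up to 3 called genes with the smallest p per nuclear list (some are left unnamed) and Rhoa were eligible to be named. Beyond these Gm13340, the untested tRNA genes and single markers are named after their values were seen, as are Tomm40, Cs and Chchd3. The same holds for Polrmt, Tfam and Atpif1, named to say what their lists hold. Alternatives were DESeq2 1.42.0, other scalings and filters, copies added, a length offset (a lowess curve over nuclear genes), counts divided by 4, and left-out replicates.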

Additional observations from a re-analysis of the deposited data

How the results depend on the processing

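Direction and call held for 20 of the 34 tested mitochondrially encoded genes under every alternative in which the gene was tested. Among them were mt-Nd1, mt-Nd3, mt-Cytb, mt-Nd4l, mt-Nd4, mt-Nd2, mt-Nd6, mt-Co1, mt-Co2 and mt-Rnr1. The 20 include sparse tRNA genes that were never called, and with the stricter filter only 27 members could be tested. Library totals alone gave 3 lower members in place of 5. For the nuclear genes of replication, expression and the outer membrane together it gave 6 lower in place of 11. Leaving out each replicate gave 12 to 16 higher and 4 to 5 lower members. Of the nuclear subunits 62 to 67 were then higher and 0 to 1 lower. With the length offset 56 nuclear subunits were higher in place of 67, and 1 was lower. The members' calls were then 15 higher and 5 lower. With both replicates numbered 3 left out, chosen after seeing the data, 17 members were higher and 5 lower. DESeq2 called 17 higher and 5 lower. Adding copies moved the knockout minus control difference of the minus to plus strand ratio to -1.31 from -1.37 and that of the tRNA to mRNA ratio to -1.63 from -1.70 (log2). mt-Ts1 held most of the minus-strand counts and most of the tRNA counts. Signs turned only for values not called. With the length offset mt-Co3 was at -0.15, Gm28437 at -0.1345, mt-Tv at 0.0392 and mt-Tg at 0.0888. With library totals alone mt-Tv was at 0.0384 and mt-Tg at 0.0544. With both replicates numbered 3 left out mt-Tv was at 0.21. With a replicate left out, mt-Tv ranged from -0.5148 to 0.1941, mt-Th from -0.033 to 0.5952, mt-Ts2 from -0.0684 to 0.3874 and mt-Ty from -0.0912 to 0.1672. The cause was not tested. The groups share replicate numbers, but deviations of same-numbered libraries over all genes tested correlated at -0.00595, 0.0277 and 0.0137 only, so the numbers were not taken as pairs. Replicate 3 nevertheless had the lowest mitochondrial share of its group on both sides, at 7.01 and 9.95%. It also had the lowest TMM factor on both sides, at 0.892 and 0.930. Whether these libraries share a source of variation was not tested. With the replicate block 16 members were higher and 5 lower, mt-Ty was at -0.0062 and mt-Tm lost its call (adjusted p = 0.0605). With counts divided by 4, 28 members could be tested, and 17 were higher and 5 lower. Dividing counts adds none of the sampling noise of a shallower library, so it cannot show how depth bears on these totals.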
